A study of Mus musculus with 2 samples.

Results

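The nuclear-encoded respiratory chain genes are the genes of the nuclear genome whose protein products build the mitochondrial electron transport chain and the ATP synthase. They were chosen by symbol, as every gene listed in both deposited tables whose symbol starts with Nduf, Sdha, Sdhb, Sdhc, Sdhd, Uqcr, Cox4, Cox5, Cox6, Cox7, Cox8 or Atp5. The rule gave 94 of the 16055 symbols that the 2 tables share. Of these 94 members, 36 encode subunits of complex I, 7 complex I assembly factors, 4 subunits of complex II, 2 complex II assembly factors, 8 subunits of complex III, 19 subunits of complex IV and 15 subunits of the ATP synthase. The other 3 carry an Atp5 symbol without being ATP synthase subunit genes of the usual set (Atp5s, Atp5sl and Atp5l-ps1).

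Complex I (NADH dehydrogenase) and complex II (succinate dehydrogenase) pass electrons to ubiquinone, complex III passes them to cytochrome c and complex IV (cytochrome c oxidase) to oxygen. Complexes I, III and IV pump protons as they do so, and the ATP synthase uses the proton gradient to make ATP. The mitochondrial genome encodes a small set of core subunits, and the nucleus encodes all others. Dividing granule neuron progenitors of the cerebellum and the medulloblastomas that arise from them are known for high aerobic glycolysis, while mature neurons rely largely on respiration.

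The data were Drop-seq profiles (droplet single-cell RNA sequencing of transcript 3′ ends) of tumour cells from hGFAPcre;Ptchc/c mice. In these mice Cre recombinase under a human GFAP promoter, which is active in neural progenitors, deletes the Hedgehog receptor gene Ptch. One library came from tumours at postnatal day 24 to 30 (P24-30) and 1 from tumours at postnatal day 12 (P12), with the same genotype in both, and the labels do not say how many animals went into each library. With 1 library per age there is no replicate check, so ratios are given with exact 95% intervals that cover counting error only, and no test was possible. The P24-30 table held 4991 cells with 12256463 unique molecular identifiers (UMIs, which count captured transcripts) and a median of 2144 per cell. The P12 table held 6000 barcodes with 12265399 UMIs and a median of 1778. Cells under 500 UMIs or over 20% mitochondrial UMIs were left out, which kept 4789 cells of P24-30 and 5723 of P12.

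Cell classes were set within each library, with the members left out of the marker lists and of the clusterings made here. The P24-30 cell names carry 16 tags, G1 to G16, that the labels do not explain. Whether the members had a part in making the tags is thus not known. By their marker genes, tags G1, G2, G3 and G16 were cycling (1863 cells) and tags G11 to G14 neuron-like (1078 cells). Tag G8 held 35 microglia-like cells, and a further clustering gave 55 microglia-like and 45 oligodendrocyte-lineage-like cells in all. In P12, clusters 2, 3, 5 and 8 were cycling (3122 cells), clusters 7 and 10 neuron-like (884 cells), and smaller clusters held 106 oligodendrocyte-lineage-like and 77 microglia-like cells. Neuron-like cells of P24-30 had summed levels of the neuron markers of 11727 CPM (counts per 1000000 UMIs), against 3206 CPM in cycling cells. The corresponding levels in P12 were 15540.3 CPM in neuron-like cells and 3277 CPM in cycling cells.

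The upstream sequences of 4 members are shown because each differed in the same direction in both libraries. Cox8a and Cox6a1 were raised together over the whole class of astrocyte-like cells, which also carried Purkinje cell markers. In its P24-30 cells with no UMI of such a marker, the Cox6a1 ratio was 1.33 (0.969 to 1.77). Cox7a2l and Ndufaf2 differed between neuron-like and cycling cells in both libraries. Each is the 150 bases before the gene's start in RefSeq (build GRCm38.p6), 5′ to 3′ on the gene's own strand, which is the minus strand for all 4. They lie at chr19:7217617-7217766 (Cox8a), chr5:115348959-115349108 (Cox6a1), chr17:83514334-83514483 (Cox7a2l) and chr13:108158626-108158775 (Ndufaf2). Capitals mark a match to the NRF1 or the ETS motif.
Cox8a: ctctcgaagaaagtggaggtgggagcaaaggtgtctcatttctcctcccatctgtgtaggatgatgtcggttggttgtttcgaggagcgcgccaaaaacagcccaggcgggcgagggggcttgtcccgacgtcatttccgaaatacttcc
Cox6a1: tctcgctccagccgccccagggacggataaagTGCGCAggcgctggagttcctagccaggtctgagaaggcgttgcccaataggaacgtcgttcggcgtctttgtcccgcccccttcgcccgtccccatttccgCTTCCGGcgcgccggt
Cox7a2l: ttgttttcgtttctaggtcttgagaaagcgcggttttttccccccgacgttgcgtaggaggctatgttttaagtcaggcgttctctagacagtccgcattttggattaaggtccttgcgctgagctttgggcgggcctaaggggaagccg
Ndufaf2: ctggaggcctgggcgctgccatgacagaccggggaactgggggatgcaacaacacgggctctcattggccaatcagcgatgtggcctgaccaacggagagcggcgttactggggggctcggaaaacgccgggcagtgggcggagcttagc

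Respiratory chain promoters are known for sites of NRF1, of ETS factors such as GABPA, and of YY1. The core letters TGCGCA (NRF1), CCGGAAG (ETS) and ATGGCGG (YY1), none of which contains another, were searched on both strands, from 250 bases before to 50 after the start, in the 78 members with a RefSeq promoter. The NRF1 letters stood in 19 of 78 members (24.4%), against 2376 of all 27025 genes (8.79%). The ETS letters stood in 19 members (24.4%), against 2683 genes (9.93%). The YY1 letters stood in 13 members (16.7%), against 1268 genes (4.69%). Cox6a1 held both the NRF1 and the ETS letters, and Cox8a held the ETS letters in the whole window but not in the stretch shown. A match is a description of the letters and not evidence of binding.

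As a whole, the respiratory chain transcripts took nearly the same share of UMIs in neuron-like and in cycling tumour cells. In P24-30 the 94 members summed to 2.30% of UMIs (95% interval 2.275 to 2.318) in neuron-like tags and 2.34% (2.326 to 2.350) in cycling tags. In P12 they summed to 2.44% (2.411 to 2.462) in neuron-like clusters and 2.40% (2.389 to 2.412) in cycling clusters. The difference was thus a few hundredths of a percent of UMIs. Its direction in P12 turned when the mitochondrial filter was dropped and the clusters were made anew. The neuron-like class of P12 went from 884 cells in clusters 7 and 10 to 626 cells in a single new cluster. The cycling class went from 3122 to 2689 cells. The separate parts of filter and clustering were not tested. Without that filter and with clusters made anew, the P12 share was 2.31% (2.277 to 2.336) in neuron-like cells and 2.38% (2.370 to 2.393) in cycling cells, which is the direction of P24-30.

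Across the P24-30 tags the share stayed in a narrow band except in tags with few cells. It was 2.27% in G1, 2.33% in G2 and 2.42% in G3, the cycling tags with S-phase, histone and mitotic genes, and 2.38% in the mitotic tag G16. It was 2.33% in G4, 2.39% in G5, 2.48% in G6 and 2.46% in G7, and 2.33% in G15, tags that carried neither marker set strongly. Among the neuron-like tags it was 2.14% in G11, 2.28% in G12, 2.30% in G13 and 2.36% in G14. The lowest share was 1.14% in G10, whose 69 cells had a median of 775 UMIs, 16491 CPM of the nuclear RNA Malat1 and 3.83% of UMIs from cytosolic ribosomal protein genes. The microglia-like tag G8 had 2.08%. Tag G9, with 11 cells, had 3.45%, and its leading genes included the astrocyte genes Slc1a3 and Aldoc and the Purkinje cell gene Pcp2.

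**Figure D1:**
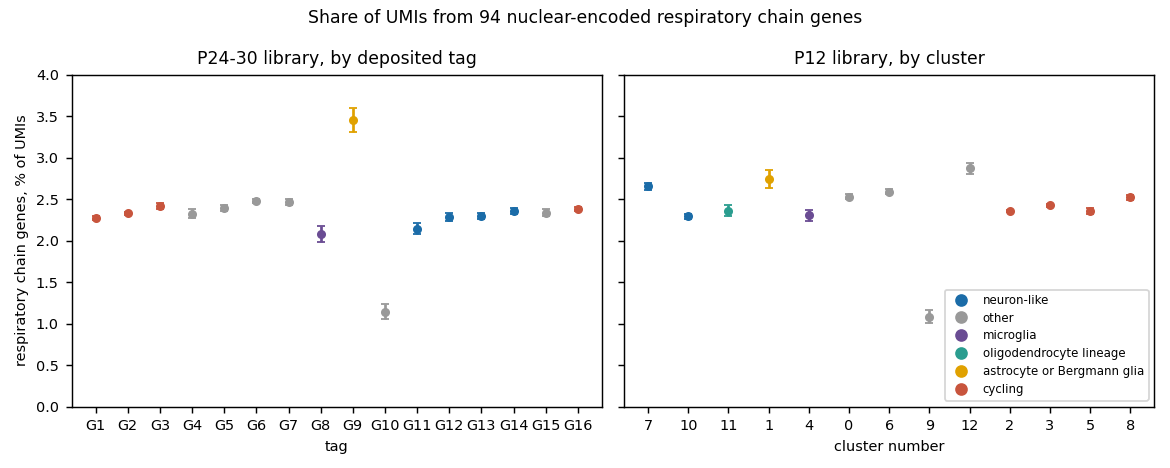
Share of UMIs (%) from the 94 respiratory chain genes, by deposited tag in P24-30 and by cluster in P12. Points are shares of summed UMIs with exact 95% intervals. Most tags and clusters lie between 2 and 3%, with G10 at 1.14% and P12 cluster 9 at 1.08% below them.

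In P12 the neuron-like clusters stood on either side of the cycling ones. Cluster 7, led by Tubb3, Stmn2 and Slc17a6, had 2.65% and cluster 10, led by Cntn2, Neurod1 and Stmn2, had 2.29%. The cycling clusters had 2.36% (cluster 2), 2.42% (cluster 3), 2.35% (cluster 5) and 2.52% (cluster 8). The highest share was 2.87% in cluster 12, 130 cells led by Hist1h2bc, Ccnb2 and Egr1, which was given no class name. The lowest was 1.08% in cluster 9, 64 cells with a median of 863.5 UMIs and 56696 CPM of Malat1. The lowest share of each library, in G10 and in P12 cluster 9, thus came with high Malat1 and few UMIs. High Malat1 did not come with a low share everywhere. Tag G9 had 17064 CPM of Malat1 and a share of 3.45%, and P12 cluster 1 had 44341 CPM and 2.74%. The part of RNA quality in these shares was not tested.

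Gene by gene, most members differed little between neuron-like and cycling cells in P24-30. Of the 94 members, 87 had at least 50 UMIs over both classes. The 7 below that were Cox4i2, Cox6a2, Cox6b2, Cox7a1, Cox7b2, Cox8b and Ndufa4l2, mostly isoforms of other tissues. Among the 87, 3 were at least 1.5-fold higher in neuron-like cells, as were 25.7% of the 9689 genes measured, and 1 was at least 1.5-fold lower, as were 13.7% of genes. The members' median log2 ratio was −0.02 and that of all genes was 0.17, so relative to the median gene the members stood at −0.18, with 1 higher and 4 lower. On the scale of all UMIs, the share of members past 1.5-fold was thus below that of all genes in both directions. Relative to the median gene, the share of all genes was not counted. The members are also more deeply counted than most genes, with a median of 2724 UMIs over the library against 315.5 over the 11118 genes with at least 50, and the part of this was not tested.

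Cox7a2l was the most deeply counted of the members past 1.5-fold in neuron-like cells. It encodes a factor known for joining complexes III and IV into supercomplexes. Its level was 318 CPM in G11, 349 CPM in G12, 337 CPM in G13 and 337 CPM in G14, against 205 CPM in G1, 185 CPM in G2, 214 CPM in G3 and 275 CPM in G16. Every neuron-like tag was thus above every cycling tag. Over the summed classes the level was 337 CPM (637 UMIs) in neuron-like cells and 213 CPM (1259 UMIs) in cycling cells, a ratio of 1.58 (1.44 to 1.74). In P12 the direction was the same and the ratio smaller, 238 CPM in neuron-like cells against 189 CPM in cycling cells, or 1.26 (1.11 to 1.42). Both neuron-like clusters of P12 were above the cycling mean, with ratios of 1.37 (1.14 to 1.62) in cluster 7 and 1.19 (1.01 to 1.38) in cluster 10.

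Ndufaf2, a complex I assembly factor, was the member with the lowest ratio in both libraries. In P24-30 it had 201 CPM in G11, 92.9 CPM in G12, 115 CPM in G13 and 122 CPM in G14, against 190 CPM in G1, 251 CPM in G2, 249.2 CPM in G3 and 158 CPM in G16. Tags G12 to G14 were below all cycling tags, while G11 lay among them. The summed level was 121 CPM in neuron-like cells and 217 CPM in cycling cells, a ratio of 0.559 (0.483 to 0.644). In P12 it was 150 CPM in neuron-like cells and 261 CPM in cycling cells, a ratio of 0.577 (0.499 to 0.665). There cluster 7 had 190 CPM and cluster 10 had 124 CPM, below the cycling clusters, which had 206 to 328 CPM. Ndufaf2 was the single member past 1.5-fold in the same direction in both libraries.

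The other members at the ends of the P24-30 order had smaller differences or few UMIs. Ndufaf1, another complex I assembly factor, had 22.7 CPM (43 UMIs) in neuron-like and 10.7 CPM (63 UMIs) in cycling cells, a ratio of 2.14 (1.41 to 3.20). Ratios of 1.27 to 1.28 were found for Uqcrh and Uqcrc1 of complex III and for Ndufa1 of complex I. Atp5s and Atp5sl had ratios of 1.45 and 1.37 with intervals that include 1. On the low side stood Atp5g2 of the ATP synthase c ring (0.704), Cox5a of complex IV (0.706), Sdha, the flavoprotein of complex II (0.722), Ndufa2 (0.749), Uqcrq (0.764), Ndufaf4 (0.811) and Uqcr10 (0.820).

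By complex, no group moved as a block in P24-30. The median log2 ratio was −0.01 over the 36 complex I subunits, −0.08 over the 4 complex II subunits, 0.10 over the 8 complex III subunits, −0.08 over the 12 measured complex IV subunits and −0.05 over the 15 ATP synthase subunits. The 7 complex I assembly factors held both ends of the order, Ndufaf1 and Ndufaf2, with a median of 0.16. Of the 15 ATP synthase subunits, 11 had a ratio below 1, none of them past 1.5-fold.

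In P12, 85 members were measured, with Atp5g2 and Atp5l-ps1 also below the minimum. Their median log2 ratio was 0.02, against 0.03 over all genes. One member was at least 1.5-fold higher (20.1% of the 10518 genes measured were) and 1 was at least 1.5-fold lower (19.3% of genes were). The higher one was Atp5sl, listed in GENCODE as Dmac2, with 24.4 CPM (35 UMIs) in neuron-like cells and 9.31 CPM (69 UMIs) in cycling cells, a ratio of 2.62 (1.69 to 3.99). Other members at the high end were Ndufaf1 (1.46), Ndufaf3 (1.36), Ndufv3 (1.33) and Ndufs1 (1.32), the last pair being complex I subunits, and Cox4i1 (1.24). Cox4i1, the widespread isoform of the complex IV subunit 4, had 1455 CPM in neuron-like cells and 1178 CPM in cycling cells. The low end after Ndufaf2 held Ndufaf4 (0.75), Ndufa12 (0.770), Ndufa2 (0.779), Ndufc2 (0.780), Uqcr10 (0.783), Atp5d (0.803) and Ndufb6 (0.815). Complex IV had a median of 0.11, with 8 of its 12 measured subunits above 1, complex III one of 0.08, the ATP synthase one of 0.03 and complexes I and II medians of −0.01 and −0.06.

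**Figure D2:**
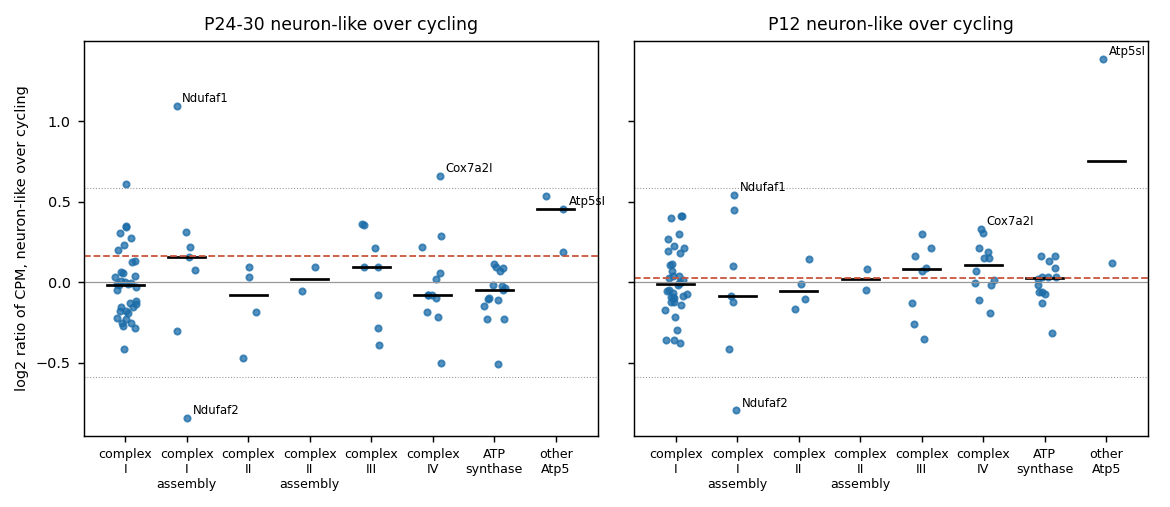
Log2 ratio of CPM, neuron-like over cycling, of each measured member by complex, in P24-30 and in P12. Each point is 1 gene; the complexes centre near 0, and Ndufaf2 lies lowest in both libraries.

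The neuron-like clusters of P12 differed from each other more than the classes did. Against the same cycling cells, the median log2 ratio of the members was 0.13 in cluster 7 and −0.07 in cluster 10. In P24-30 it was −0.11 in G11, −0.06 in G12, −0.0002 in G13 and −0.01 in G14. Several technical measures differed between the classes. Median UMIs per cell were 1671 in neuron-like and 2837 in cycling cells of P24-30, and 1469 in neuron-like and 2090.5 in cycling cells of P12. Malat1 was 8089 CPM in neuron-like and 5121 CPM in cycling cells of P24-30, and 19674 CPM in neuron-like and 14114 CPM in cycling cells of P12. Choroid plexus markers summed to 235 CPM in neuron-like and 96.4 CPM in cycling cells of P24-30. Their part in the ratios was not tested.

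Set side by side, the libraries gave many members the same direction. Of the 85 members measured in both, 59 had a ratio on the same side of 1, 28 of them above and 31 below. Across these 85 genes Pearson's r of the log2 ratios was 0.70 and Spearman's rho 0.69, as a description, since genes are not independent and the members at low counts are noisy. For 16 members the difference between the libraries' log2 ratios had a counting interval that excluded 0. Cox7a2l was 0.33 higher in P24-30 (0.66) than in P12 (0.33), and Uqcrh, Atp5d, Ndufc2 and Atp5c1 were 0.17 to 0.27 higher in P24-30. Ndufs1 was lower in P24-30 (−0.13) than in P12 (0.40), as were Ndufv3 (0.04 and 0.41), Atp5g3 (−0.22 and 0.13), Cox5a (−0.50 and −0.19) and Cox5b (−0.08 and 0.21). Of the 16, 6, among them Cox6a1, Cox6c and Cox7a2, were complex IV subunits with a lower ratio in P24-30 than in P12. Such figures were made for the members only. Neither the shared direction nor the differences can thus be called particular to them.

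**Figure D3:**
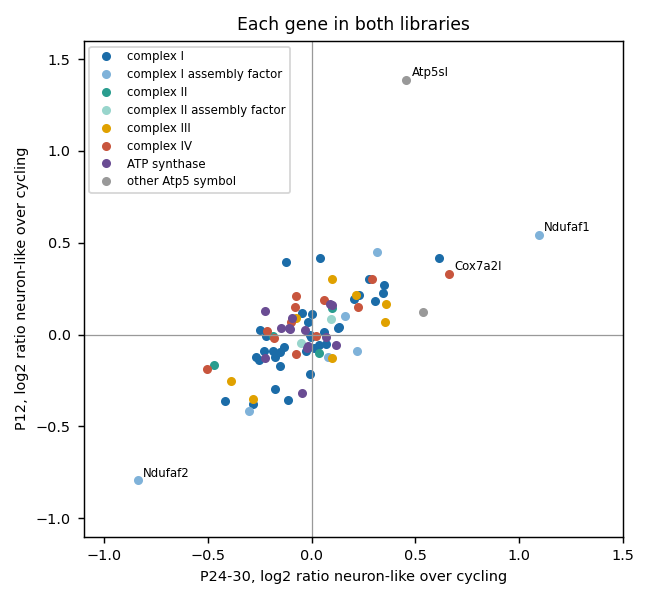
Log2 ratio of CPM, neuron-like over cycling, in P24-30 (x axis) and in P12 (y axis) for the 85 members measured in both. Points are genes, coloured by complex; 59 fall in the quadrants of equal sign, with Ndufaf2 farthest into the lower left one.

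The mitochondrially encoded subunits of the same complexes were somewhat higher in neuron-like cells. In P24-30 all 13 had a ratio above 1, none past 1.5-fold, with a median log2 ratio of 0.32 and 1.39-fold for mt-Co1. In P12, 6 of 7 measured were above 1, with a median of 0.17 and 1.38-fold for mt-Co1. The glycolysis genes were mixed. Aldoa (aldolase) was 4.23-fold higher in neuron-like cells of P24-30 and 2.86-fold in those of P12, and Ldhb (lactate dehydrogenase B) 2.81-fold and 2.43-fold. Hk2, the hexokinase known for Hedgehog-driven glycolysis in granule progenitors, had ratios of 0.348 and 0.356. Of the 13 glycolysis genes measured in P24-30, 5 were at least 1.5-fold higher and 3 lower, and of the 15 in P12, 6 were higher and 2 lower. Esrra, a nuclear receptor known to drive respiratory genes, had ratios of 3.81 and 3.22, and the cytochrome c gene Cycs 0.546 and 0.663. In the citric acid cycle, Suclg2 (0.303 and 0.112) and Idh2 (0.609 and 0.561) were lower in neuron-like cells of both libraries, while the 17 genes had a median of −0.09 and −0.05. The mitochondrial ribosomal protein genes, 75 measured in each library, had medians of −0.05 and −0.11.

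Over the P24-30 tags, members differed widely in how even they were. Among 13 tags with at least 50 cells, leaving out G10, 79 members had at least 500 UMIs, and their median ratio of the highest to the lowest tag was 1.52. Cox6c (664 CPM in G13 to 810 CPM in G7), Atp5h (410 CPM in G15 to 500 CPM in G3) and Cox8a (692 CPM in G15 to 847 CPM in G4) were the most even, at 1.22 to 1.23. Ndufaf4 was the least even, at 3.8, with 25.6 CPM in G12 and 97.5 CPM in G3. It was followed by Atp5g1 (3.15, lowest in G11 and highest in G3), Ndufaf2 (2.70, lowest in G12 and highest in G2), Sdhc (2.59) and Ndufs3 (2.49). These 8 were named after their values were seen. By complex the median of this ratio was 1.4 for 12 subunits of complex IV, 1.44 for the ATP synthase, 1.52 for complex I, 1.56 for complex III and 1.79 for complex II. Members with few UMIs vary more by counting alone, and the complexes differ in their UMI counts.

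Oligodendrocyte-lineage-like cells took a share of respiratory chain transcripts close to that of cycling cells. The share was 2.42% (2.320 to 2.518) in P24-30 and 2.36% (2.293 to 2.429) in P12. In P24-30, 10 of 85 members were at least 1.5-fold higher than in cycling cells, as were 33.2% of the 8014 genes measured, and 6 were lower, as were 25.8% of genes. In P12, 9 of 85 were higher, as were 26.0% of 9757 genes, and 5 were lower, as were 28.9% of genes. In each direction the members past 1.5-fold were thus a smaller share than among all genes. Relative to the median gene the P12 counts were 11 higher and 3 lower, with no such count made over all genes. Many of these rest on few UMIs, and the interval excluded 1 for 4 of the 10 and 2 of the 6 in P24-30 and for 8 of the 9 and 3 of the 5 in P12. The median log2 ratio was 0.08 in P24-30 (all genes 0.09) and 0.03 in P12 (all genes −0.04).

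Complex II had the highest median of the 5 complexes in these cells, at 0.81 in P24-30 and 0.42 in P12 over 4 genes. Sdhb, its iron-sulphur subunit, had 355 CPM (34 UMIs) in oligodendrocyte-lineage-like cells and 177 CPM in cycling cells of P24-30, a ratio of 2.00 (1.38 to 2.82). Sdhc, a membrane anchor, had 192 CPM (38 UMIs) and 86.9 CPM in P12, a ratio of 2.21 (1.55 to 3.07). Ndufv3 of the NADH-oxidising part of complex I was higher in both, with 2.00 (1.21 to 3.12) in P24-30 and 1.82 (1.30 to 2.49) in P12. In P24-30, Ndufs3 (2.58) and Ndufb6 (1.82) were higher with intervals above 1, while Ndufaf6, Sdhd, Ndufaf1 and Ndufaf5 had ratios of 1.80 to 2.40 on 2 to 12 UMIs with intervals that include 1. In P12, Ndufaf7 (2.27), Ndufb4 (1.86), Uqcrc1 (1.78), Ndufa9 (1.65), Ndufa8 (1.56) and Ndufa11 (1.51) were also higher.

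Fewer members were lower. In P24-30, Ndufa2 (0.566, 0.358 to 0.851) and Cox5a (0.573, 0.354 to 0.879) were lower with intervals below 1. In P12, Cox7a2 had 495 CPM in oligodendrocyte-lineage-like cells and 828 CPM in cycling cells, a ratio of 0.598 (0.485 to 0.730). Uqcrh (0.665), Ndufc2 (0.666), Atp5j (0.669), Ndufa2 (0.715) and Cox5a (0.746) followed in P12. Sdhaf1, Ndufaf3, Ndufab1, Ndufs1, Ndufa9 and Atp5o in P24-30, and Atp5g1 and Ndufs3 in P12, had ratios of 0.286 to 0.694 with intervals that include 1. The 13 mitochondrially encoded subunits were all at least 1.5-fold higher in P24-30 (median log2 ratio 0.85). In P12 the 7 measured had a median of 0.25 and none was past 1.5-fold. Beside these values, Malat1 was 26445 CPM in these cells and 5121 CPM in cycling cells of P24-30, and 39072 CPM and 14114 CPM in P12. Astrocyte markers summed to 2036 CPM in the P24-30 cells and 3547 CPM in the P12 cells, with 9 of 12 detected in each. The part of these in the ratios was not tested.

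Microglia-like cells had a lower respiratory chain share than cycling cells. In P24-30 it was 2.09% (2.010 to 2.164), against 2.34% in cycling cells. In P12 it was 2.31% (2.238 to 2.374), against 2.40% in cycling cells. The median log2 ratio was −0.25 in P24-30 and −0.20 in P12. All genes had medians of −0.44 and −0.56, so relative to the median gene the sign turned, to 0.19 and 0.36. In P24-30, 8 of 84 members were at least 1.5-fold higher (19.5% of the 7997 genes measured were) and 22 lower (44.7% were). In P12, 8 of 85 were higher (19.2% of 9446 genes were) and 17 lower (49.2% were). Relative to the median gene the counts were 19 higher and 8 lower in P24-30 and 32 higher and 6 lower in P12. The share of all genes past 1.5-fold on that scale was not counted, so this turn cannot be called particular to the members.

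Complex I subunits were among both the 8 lowest and the 8 highest ratios in microglia-like cells of each library, as were complex III subunits. Ndufv1, which carries the NADH-binding flavin site, had 14.6 CPM (2 UMIs) in microglia-like cells and 83.4 CPM (493 UMIs) in cycling cells of P24-30, a ratio of 0.176 (0.021 to 0.638). In P12 it had 25.6 CPM (5 UMIs) and 104 CPM (771 UMIs), a ratio of 0.246 (0.080 to 0.578). Ndufv3, a small subunit of the same module, was higher, with 242 CPM in microglia-like and 104 CPM in cycling cells of P24-30 (2.31, 1.58 to 3.29). In P12 it had 318 CPM and 114 CPM (2.79, 2.12 to 3.61). Ndufa1 was also higher in both, by 1.76-fold in P24-30 and 2.22-fold in P12.

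Further members were higher in microglia-like cells of 1 library by the same measure. In P24-30 these were Ndufa9 (2.03), Ndufa6 (1.70), Uqcrq (1.62), Cox5b (1.61) and Cox7a2l (1.51). In P12 they were Sdhaf2 (2.37), Sdhc (1.89), Uqcr10 (1.70), Cox4i1 (1.55) and Uqcr11 (1.52). Ndufaf2 was lower in both, at 0.439 (0.233 to 0.753) in P24-30 and 0.216 (0.108 to 0.388) in P12. In P24-30 Atp5g3 (0.391), Uqcrc2 (0.423), Ndufa12 (0.428) and Atp5d (0.485) were lower. The ATP synthase subunits had a median of −0.43 over 15 in P24-30, next to −0.44 for all genes, and of −0.19 over 14 in P12, next to −0.56. In P12 Uqcrfs1, the Rieske iron-sulphur protein of complex III, had a ratio of 0.349 (0.190 to 0.587). Ndufs4 (0.452), Ndufa4 (0.506) and Ndufaf4 (0.518) followed. Sdhaf1 and Ndufaf7 in P24-30 and Ndufaf1 and Ndufaf6 in P12 were also at the low end, on 1 to 3 UMIs with intervals that include 1, as does that of Ndufaf6 (1.69) in P24-30 and Ndufs3 (1.64) in P12 at the high end.

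The mitochondrial ribosomal protein genes had medians near those of all genes in microglia-like cells, −0.54 in P24-30 and −0.67 in P12. Of these, 34 of 74 and 39 of 75 were at least 1.5-fold lower, close to the 44.7% and 49.2% of all genes. Of the glycolysis genes, 9 of 11 measured in P24-30 and 8 of 12 in P12 were at least 1.5-fold higher, Aldoa by 14.2-fold and 9.08-fold. Prdx5, a mitochondrial peroxiredoxin, was 6.13-fold and 3.46-fold higher. Cycling markers of the G2 and M phase were present in these cells at 1340 CPM in P24-30 and 2334 CPM in P12. In cycling cells they stood at 8083 CPM and 14141 CPM. Doublets and free RNA were not removed, and their part in these ratios was not tested.

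Astrocyte-like or Bergmann-glia-like cells formed no cluster of their own in P24-30 after the mitochondrial filter at Leiden resolution 0.5 or 1, and one of 45 cells in P12 at resolution 1. At resolution 2 there was one of 65 cells in P24-30. Without that filter the clustering gave 82 such cells in P24-30 and 132 in P12, and they are described from that setting, with cycling cells of the same setting. All 12 astrocyte markers were detected in both. These cells were not pure. The 4 Purkinje cell markers Pcp2, Calb1, Car8 and Ppp1r17 were all detected and summed to 2201 CPM in P24-30 and 843 CPM in P12, against 6.94 CPM and 4.26 CPM in cycling cells. Mitochondrial UMIs were 18.7% of the total in P24-30 and 32.4% in P12, against 2.70% and 7.51% in cycling cells. In P24-30 Pcp2 was among their 10 leading genes, next to S100b, Sparcl1 and Aldoc.

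The respiratory chain share in these cells was 3.43% in P24-30 and 2.88% in P12, against 2.34% and 2.38% in cycling cells. In P24-30, 27 of 86 members were at least 1.5-fold higher (15.2% of the 8691 genes measured were) and 6 lower (42.4% were). The median log2 ratio was 0.30, against −0.42 for all genes. In P12, 8 of 85 were higher (8.24% of 9591 genes were) and 8 lower (49.5% were), with a median of 0.05 against −0.58. The interval excluded 1 for 24 of the 27 higher members in P24-30 and for 7 of the 8 in P12. The counts moved with the scaling. Over UMIs without mitochondrial and ribosomal protein genes they were 43 higher and 3 lower in P24-30 and 36 higher and 2 lower in P12, and relative to the median gene 53 higher and 1 lower, and 47 higher and 2 lower. They also moved with the Purkinje markers. In the cells with no UMI of such a marker, 7 of 83 members were higher and 12 lower in P24-30 and 7 of 85 higher and 9 lower in P12, with shares of 2.53% and 2.57%. The share of all genes past 1.5-fold was counted for the whole class over all UMIs only. The moves with scaling and markers can thus not be called particular to the members.

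Complex IV stood highest among the complexes in these cells. In P24-30, 10 of its 12 measured subunits were at least 1.5-fold higher (median log2 ratio 0.72), and its summed level was 14770 CPM in astrocyte-like cells and 7349 CPM in cycling cells. In P12, 4 of 12 were (median 0.44), and the summed level was 11461 CPM and 7245 CPM. Cox8a, the smallest nuclear subunit of the widespread form of the enzyme, led in both libraries. It had 3255 CPM (794 UMIs) in astrocyte-like cells and 751 CPM in cycling cells of P24-30, a ratio of 4.33 (4.01 to 4.67). In P12 it had 1642 CPM (442 UMIs) and 491 CPM, a ratio of 3.34 (3.02 to 3.69). In the 45 cells kept by the filter in P12, Cox8a had 720 CPM (64 UMIs), against 491 CPM in cycling cells. Among the 13 larger P24-30 tags, by contrast, it ranged from 692 to 847 CPM.

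Other members followed at a distance. Cox6a1 had ratios of 2.34 in P24-30 and 1.97 in P12, Cox4i1 2.33 and 1.62, Cox6c 2.09 and 1.91, and Ndufa1 2.14 and 1.87. Uqcr11 was 2.12-fold higher in P12. Ndufv3 was 2.08-fold and 1.51-fold higher, and was raised in the oligodendrocyte-lineage-like and microglia-like cells as well. Sdhaf2 was 2.32-fold higher in P24-30 (14 UMIs) and had a ratio of 0.665 on 4 UMIs in P12. Atp5sl in P24-30 (2.12, 5 UMIs) and Atp5s in P12 (1.51, 5 UMIs) had intervals that include 1. Ndufaf2 was lower again, at 0.549 (0.366 to 0.792) and 0.626 (0.449 to 0.849). Ndufaf7 was at 0.326 (0.088 to 0.844) in P24-30 on 4 UMIs and Atp5g2 at 0.661 there. Ndufs3, Sdhaf1, Ndufaf3, Ndufa9 and Ndufs1 in P24-30 and Ndufaf6, Sdhaf1, Ndufa9, Ndufaf5, Ndufaf7 and Ndufb4 in P12 had ratios of 0.354 to 0.692 with intervals that reach or include 1.

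The difference in complex IV moved with both the mitochondrial share and the Purkinje markers. In P24-30 the Cox8a ratio was 2.70 (2.40 to 3.03) in the 40 cells with at most 20% mitochondrial UMIs and 7.08 (6.43 to 7.78) in the 42 above it. In P12 it was 1.52 (1.21 to 1.88) in 52 cells and 4.68 (4.19 to 5.23) in 80. In the cells with no UMI of a Purkinje marker, it was 2.22 (1.80 to 2.72) over 20 cells of P24-30 and 2.10 (1.73 to 2.53) over 70 cells of P12. In the cells with such a UMI it was 5.0 (4.61 to 5.42) and 4.22 (3.76 to 4.73), over 62 cells each. In the cells without Purkinje marker UMIs, Cox8a was thus above cycling cells, and 1 of 12 complex IV subunits was past 1.5-fold in each library. These cells had a median of 2521.5 UMIs in P24-30 and 1434 in P12. At that depth a cell can hold Purkinje cell RNA without a UMI of these markers, and the part of this was not tested. The ratios of the next members were lower in these cells than over the whole class. In P24-30 Cox6a1 had a ratio of 1.33 (0.969 to 1.77), Cox4i1 of 1.30 (0.995 to 1.68) and Ndufa1 of 1.34 (0.777 to 2.15), all with intervals that include 1. In P12 they were 1.41 (1.15 to 1.71), 1.26 (1.07 to 1.47) and 1.33 (0.953 to 1.81). The cells without such UMIs also had fewer mitochondrial UMIs, 9.21% in P24-30 and 22.5% in P12, and these measures cannot be told apart here.

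**Figure D4:**
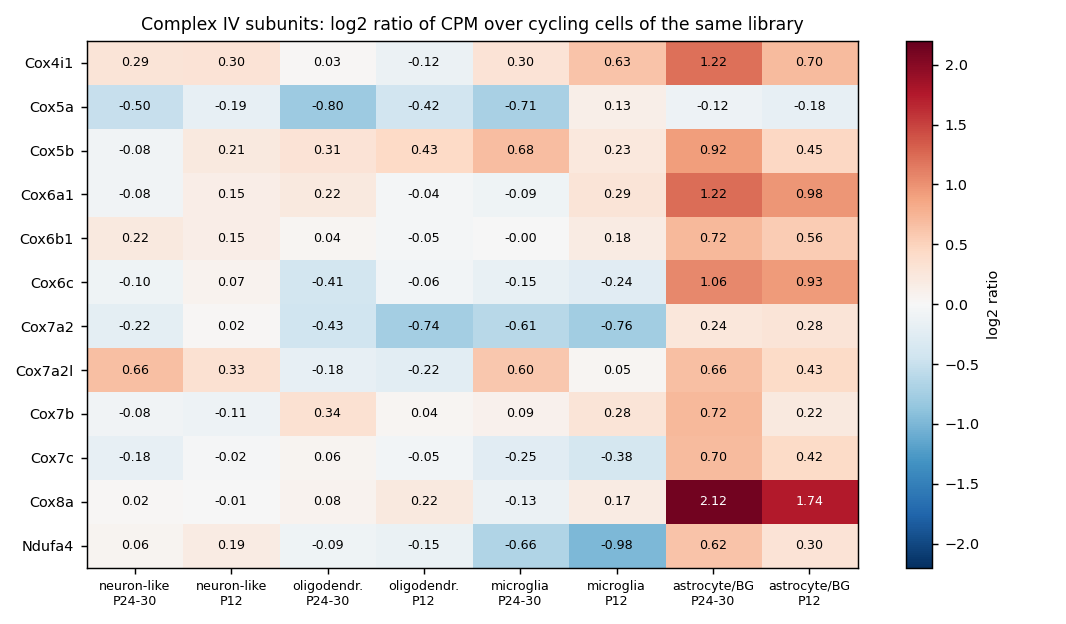
Log2 ratio of CPM over cycling cells of the same library for the complex IV subunits, by cell class and library. Columns are classes, rows are genes, and the colour scale is log2; Cox8a in the astrocyte-like cells is the strongest entry.

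The tissue-specific isoforms of complex IV had few or no UMIs. In cycling cells of P24-30, Cox4i1 had 4724 UMIs and Cox4i2 had 1, Cox6a1 had 3496 and Cox6a2 had 0, Cox6b1 had 3852 and Cox6b2 had 20, and Cox8a had 4441 and Cox8b had 1. Cox7a2 had 4422 UMIs and the muscle isoform Cox7a1 had 8, and Cox7b had 3169 and Cox7b2 had 2. In cycling cells of P12 the minor isoforms had 2 (Cox4i2), 2 (Cox6a2), 23 (Cox6b2), 20 (Cox7a1), 0 (Cox7b2) and 0 (Cox8b) UMIs. Ndufa4 had 4665 UMIs and Ndufa4l2, known as a hypoxia-responsive partner, 8 in cycling cells of P24-30. None of these minor isoforms passed 50 UMIs over the classes compared in any contrast within a library. A floor of 3 UMIs stands for 0.507 CPM in cycling and 1.59 CPM in neuron-like cells of P24-30, but for 22.0 CPM in its microglia-like and 31.3 CPM in its oligodendrocyte-lineage-like cells. Lower levels were not detectable at this depth.

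Between ages, the values also carry the difference between the tables. The P24-30 table is normalized and lists fewer genes, and the genes listed in both take 96.5% of its UMIs in cycling cells, against 92.2% in P12. In cycling cells, 87 members had a median log2 ratio of P24-30 over P12 of −0.19 (all genes −0.34), 11 of them at least 1.5-fold higher (10.5% of the 10133 genes measured were) and 7 lower (28.9% were). In neuron-like cells, 86 members had a median of −0.24 (all genes −0.26), with 11 higher (12.8% of 7389 genes were) and 8 lower (25.8% were). Relative to the median gene the medians were 0.15 and 0.02.

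The high end of that order consisted mostly of members that share a stretch of sequence with another gene. Of the 94 members, 46 share an exact stretch of 50 bases in the last 600 bases of a transcript with another gene in GENCODE, and 48 share none. Both strands were searched, and the kind of shared sequence was not examined. The number of other genes was 591 for Ndufaf7, 245 for Atp5g1 and 3 for Atp5g2. In cycling cells, 10 of 45 measured members that share a stretch were at least 1.5-fold higher in P24-30 and 0 lower, while of the 42 that share none 1 was higher and 7 were lower. In neuron-like cells the counts were 9 higher and 2 lower of 45, and 2 higher and 6 lower of 41. Atp5g2 had 453 CPM in P24-30 and 5.80 CPM in P12 cycling cells, Atp5l 363 and 19.7 CPM, Atp5g1 217 and 35.4 CPM, and Cox7c 863 and 147 CPM. The sources used here do not say how reads that match several genes were assigned in either table, so these levels are uncertain.

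Among members that share no stretch, Cox8a was the one above 1.5-fold in cycling cells, with 751 CPM in P24-30 and 491 CPM in P12, a ratio of 1.53 (1.46 to 1.6). In neuron-like cells it had 763 CPM and 489 CPM, a ratio of 1.56 (1.43 to 1.71). Sdhd, a membrane anchor of complex II, was lowest in both classes, with 68.7 CPM in P24-30 and 144 CPM in P12 cycling cells (0.478, 0.425 to 0.537) and a ratio of 0.526 (0.419 to 0.660) in neuron-like cells. All 4 complex II subunits had a ratio below 1 in both classes. With 1 library per age, age, library and table cannot be told apart.

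**Figure D5:**
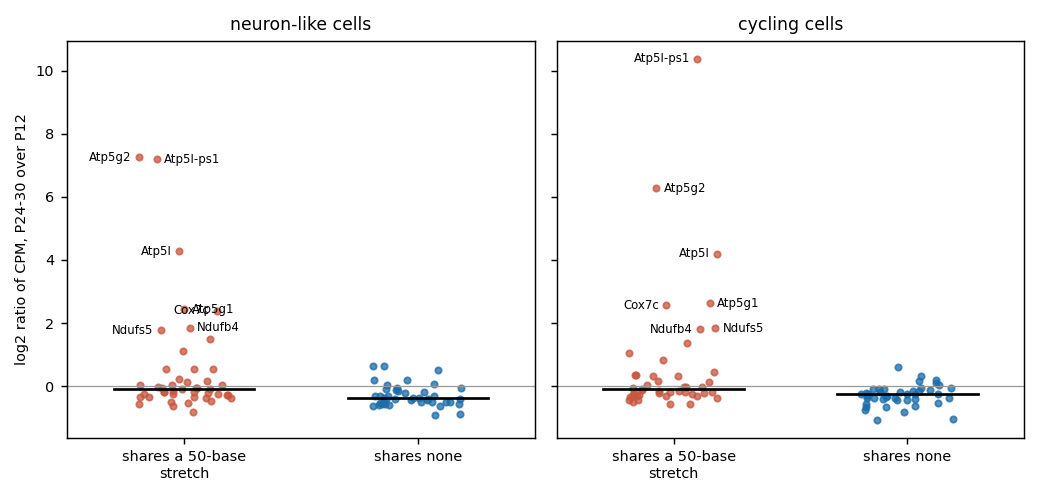
Log2 ratio of CPM, P24-30 over P12, of each measured member in cycling and in neuron-like cells, split by whether its transcript shares a 50-base stretch with another gene. Points are genes; the far high values, such as Atp5g2 and Atp5l, all share a stretch.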

How the data were processed

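Single-cell suspensions of tumour tissue were profiled by Drop-seq and sequenced from transcript 3′ ends, per the labels' protocols. The submitters' processing notes name CASAVA and the genome build mm10; of the aligner, the UMI collapsing and the choice of cells nothing is stated there, so these are not given in the sources used. The authors deposited a table of raw counts per gene and barcode for P12. For P24-30 they deposited natural log values, which in every cell equal the natural log of 1 plus 10000 times the gene's share. From these values whole UMIs were recovered for 100% of 6195642 entries, within 0.01, with a median of 0.190% of a cell's total outside the listed genes.

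The members, marker lists and pathway lists were chosen with earlier results of these data known, and the thresholds for naming classes were set after the clusters were seen. Cells under 500 UMIs or over 20% mitochondrial UMIs were left out. Clusters were made per library with scanpy 1.11.5 (2000 variable genes without members, mitochondrial or ribosomal protein genes, 30 components, 15 neighbours, Leiden resolution 1). Tags or clusters were named cycling or neuron-like where the mean log2 ratio of the markers over the rest was at least 0.75, and glial or immune at 2.5, each with at least 3 markers raised. Cells of which 1% or more of UMIs came from choroid plexus, blood, vessel, meningeal or T-cell markers were set apart, as were glial or immune cells inside other tags.

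UMIs were summed per class and given as CPM of all UMIs. Ratios have exact conditional (Clopper-Pearson) intervals and levels exact Poisson ones, for counting error only. A gene was measured with at least 50 UMIs over both classes, unless it had 0 in one class and the floor of 3 left its direction unsettled. Checked on simulated counts, 95.4% of the intervals covered the true ratio over 9689 genes for P24-30 neuron-like over cycling cells, and 95.8% over 10518 genes for P12. These counts were drawn at random from fixed proportions, as the intervals assume, so the check covers the calculation only. Variation between cells, doublets, free RNA and errors of class were not simulated. The members named are the 8 highest and 8 lowest ratios of each contrast within a library and the isoform sets. One of these genes is not reported here. No doublet caller was used, so doublets may remain, and free RNA was not removed. P24-30 cell names carry no barcodes, so barcodes shared between libraries could not be counted.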

Additional observations from a re-analysis of the deposited data

Results flagged for a closer look

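With the mitochondrial filter, the summed share of the respiratory chain members lay on opposite sides of 1 in the 2 libraries. Over the share in cycling cells, that in neuron-like cells was 0.982-fold in P24-30 and 1.02-fold in P12. Both ratios have counting intervals that exclude 1, but each rests on 1 library and the difference between them was not tested. Without the filter and with clusters made anew, the P12 value was 0.968-fold, below 1 as in P24-30. The neuron-like class of P12 then held 626 cells of a single new cluster instead of 884. With the filter, the neuron-like clusters of P12 themselves lay on either side, with 2.65% of UMIs in cluster 7 and 2.29% in cluster 10. Cycling cells had 2.40%.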

How the results depend on the processing

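No paired analysis was possible because each age is 1 library. The median log2 ratio of the members was held against an interval taken from the spread of the log2 ratios across members. This interval treats the members as independent and does not include counting error. The median stayed within this interval under most alternatives, and the exceptions follow. For neuron-like over cycling cells of P24-30 the median was −0.18 relative to the median gene, with 1 member at least 1.5-fold higher and 4 lower. It was −0.11 in tag G11 alone. With no minimum of UMIs 6 members were higher, and with classes from a clustering of the cells 2 were lower. For P12 the median was −0.0524 without the mitochondrial filter and with clusters made anew, with 2 members lower. It was 0.13 in cluster 7 alone and −0.0745 in cluster 10 alone. With no minimum 4 members were higher and 3 lower, with a minimum of 200 UMIs 0 were higher, and at Leiden resolution 0.5 it was 2. With every cell weighted equally, the P24-30 oligodendrocyte-lineage-like median was −0.0173. Relative to the median gene, the medians were 0.19 (P24-30) and 0.36 (P12) in microglia-like cells, 0.73 (P24-30) and 0.63 (P12) in astrocyte-like cells, and, for P24-30 over P12, 0.15 in cycling and 0.0191 in neuron-like cells. Scaled without mitochondrial and ribosomal protein genes, the astrocyte-like medians were 0.54 (P24-30) and 0.51 (P12). The P12 one was 0.17 with the mitochondrial filter, and the P24-30 one 0.0686 in cells with no Purkinje marker UMI. Over members that share no sequence, the medians of P24-30 over P12 were −0.27 in cycling and −0.38 in neuron-like cells. The causes were not tested, and the share of all genes past 1.5-fold was not counted under these alternatives. The summed share of the members, neuron-like over cycling, changed side of 1 under 3 alternatives in P12. These were no mitochondrial filter with clusters made anew (0.968), every cell weighted equally (0.994) and Leiden resolution 0.5 (0.9996). In P24-30 it did so over members that share no sequence (1.01). Of the 50 values of the summed share under alternatives, 30 stayed within the counting interval. Ratios of single named members were followed for neuron-like over cycling cells only. Of these values, 230 stayed within the counting interval and 10 did not. No member past 1.5-fold changed side of 1, and a change of side was not looked for in the other members. The alternatives that take each cluster or tag alone, and those of the astrocyte-like cells by mitochondrial share or Purkinje markers, were chosen after seeing the data. The glial classes hold 45 to 132 cells, which limits the precision of their ratios.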
